A study of Papio anubis with 25 samples.

Results

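The genes described here are 8 genes used to follow smooth muscle and myoepithelium, namely 6 genes of the contractile machinery (ACTA2, MYLK, CNN1, MYH11, TAGLN, CALD1), the transcription factor gene TP63 and the receptor gene OXTR, taken by gene symbol from a table of 21287 genes. All 8 symbols were found, each in 1 row. The values were TPM, a measure of RNA abundance that is corrected for transcript length and relative to the library total. The study took the liver, the pancreas and the 3 major salivary glands (parotid, submandibular, sublingual) of 5 olive baboons (Papio anubis), with 1 bulk library per tissue and animal and 25 libraries in all. Of the animals only baboon 5 was male, the others were female, and the labels name no treatment, genetic change or age. The tissue was flash frozen and RNA came from thin sections, so a library holds the cells of those sections only. Salivary glands were compared with pancreas, pancreas with liver and the glands with each other, within animals.

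Salivary acini and the smallest ducts are wrapped by myoepithelial cells, flat epithelial cells that contract to expel saliva. They carry the same actin and myosin apparatus as smooth muscle, together with basal keratins such as KRT5 and KRT14. Exocrine pancreas is generally described as lacking such cells, and its contractile RNA is usually attributed to vessels, ducts and stellate cells. Contraction starts when calcium and calmodulin activate myosin light chain kinase, which phosphorylates the myosin light chain and lets myosin pull on actin, while calponin and caldesmon restrain the filaments. In bulk tissue, fewer cells of a type and less RNA per cell cannot be told apart, and neither can myoepithelium and vessel smooth muscle from these shared genes alone.

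The libraries differed in what else they held, which bears on every level below. The 10 most abundant genes took 83.2%, 66.2% and 87.7% of all TPM in the parotid libraries of baboons 1, 3 and 4, but 18.0% and 24.4% in those of baboons 2 and 5. In the submandibular gland the share was 82.6%, 16.2%, 75.6%, 83.2% and 57.9% for baboons 1 to 5. Because TPM sums to the same total everywhere, a few very abundant genes lower all others, and trimmed-mean scaling factors accordingly ranged from 0.34 in the parotid gland of baboon 4 to 2.63 in the submandibular gland of baboon 2. Pancreatic acinar markers summed to 54982 to 114076 TPM in pancreas and at most 1656 TPM elsewhere, and hepatocyte markers to 41517 to 69455 TPM in liver and at most 1031 TPM elsewhere. Summed fibroblast markers (6 of 6 genes detected) reached 5437 TPM in the parotid library of baboon 2 and, in its submandibular library, 5180 TPM, against 26.9 to 441 TPM and 54.1 to 787 TPM in the other animals. Summed adipocyte markers (5 of 5) were highest in the parotid library of baboon 2 (19002 TPM) and the submandibular library of baboon 5 (7018 TPM). The salivary marker AQP5 was low in the parotid libraries of baboons 2 and 5 (2.25 and 3.64 TPM) and in the submandibular library of baboon 2 (5.40 TPM). Among sublingual libraries, skeletal muscle markers (7 of 8 in the table, all 7 detected) summed to 101745 TPM in baboon 2, and squamous mucosa markers (7 of 8 in the table) to 116990 TPM in baboon 1 and 53704 TPM in baboon 4. AQP5 was as low as 3.78 TPM in 1 of the sublingual libraries of baboons 1 and 4. Salivary acinar and duct markers summed to 7.03 TPM in the sublingual library of baboon 2, the lowest sum of the 25 libraries. Many results that rest on these libraries are given with and without them.

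Of the members, 5 encode the filament and its motor or bind it, MYLK encodes the activating kinase, and the 6 together are called the contractile genes below. All 6 had higher means in each salivary gland than in pancreas. Summed over the 8 members, the parotid libraries held 63.1 to 1816 TPM, the submandibular 151 to 1409 TPM, the sublingual 110 to 1055 TPM, the pancreas 32.3 to 84.0 TPM and the liver 139 to 421 TPM. On log2(TPM + 1) in limma, with tissue and animal as terms and Benjamini-Hochberg adjustment over 14991 genes, calls required an adjusted p below 0.05 and a log2 fold change of 1 or more in either direction. On this scale, which understates changes of low genes, 5 of 8 members were called higher in parotid than in pancreas, where 1.41% of all tested genes were. In submandibular gland 5 of 8 members were called higher, against 1.27% of tested genes, and in sublingual gland 7 of 8, against 6.97%. The sublingual count includes TP63, which passed the filter on low values (1 TPM on average in any tissue) only through that gland, so its call there was in part built in, and without TP63 and OXTR the counts were 5, 5 and 6 of the 6 contractile genes. No member was called lower in a gland than in pancreas. The median log2 fold change of the members was 2.47, 2.65 and 2.31 in parotid, submandibular and sublingual gland, beside medians of 0.45, 0.17 and 0.63 over all tested genes. With trimmed-mean scaling the members' medians were 2.02, 2.52 and 1.66 and those of all genes 0.05, 0.03 and 0.10. The 3 comparisons share the pancreas libraries, so they are not independent of each other. Without baboon 3 the called members numbered 1, 3 and 1 in parotid, submandibular and sublingual gland. The 1 left in sublingual gland was TP63, so none of the 6 contractile genes was called there without baboon 3. Without baboon 1 the called members numbered 2, 4 and 3, and without baboons 4 or 5 they numbered 4 and 3 in sublingual gland. A fit to the compared tissues alone called 1 in parotid and 3 in sublingual gland. Calls over all tested genes fell as well. Those called higher went from 212, 190 and 1045 in the 3 glands to 36, 50 and 225 without baboon 3 and to 131, 61 and 139 without baboon 1. Without baboons 4 or 5 they were 319 and 507 in sublingual gland. The fit to the compared tissues gave 22 in parotid and 603 in sublingual gland.

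**Figure D1:**
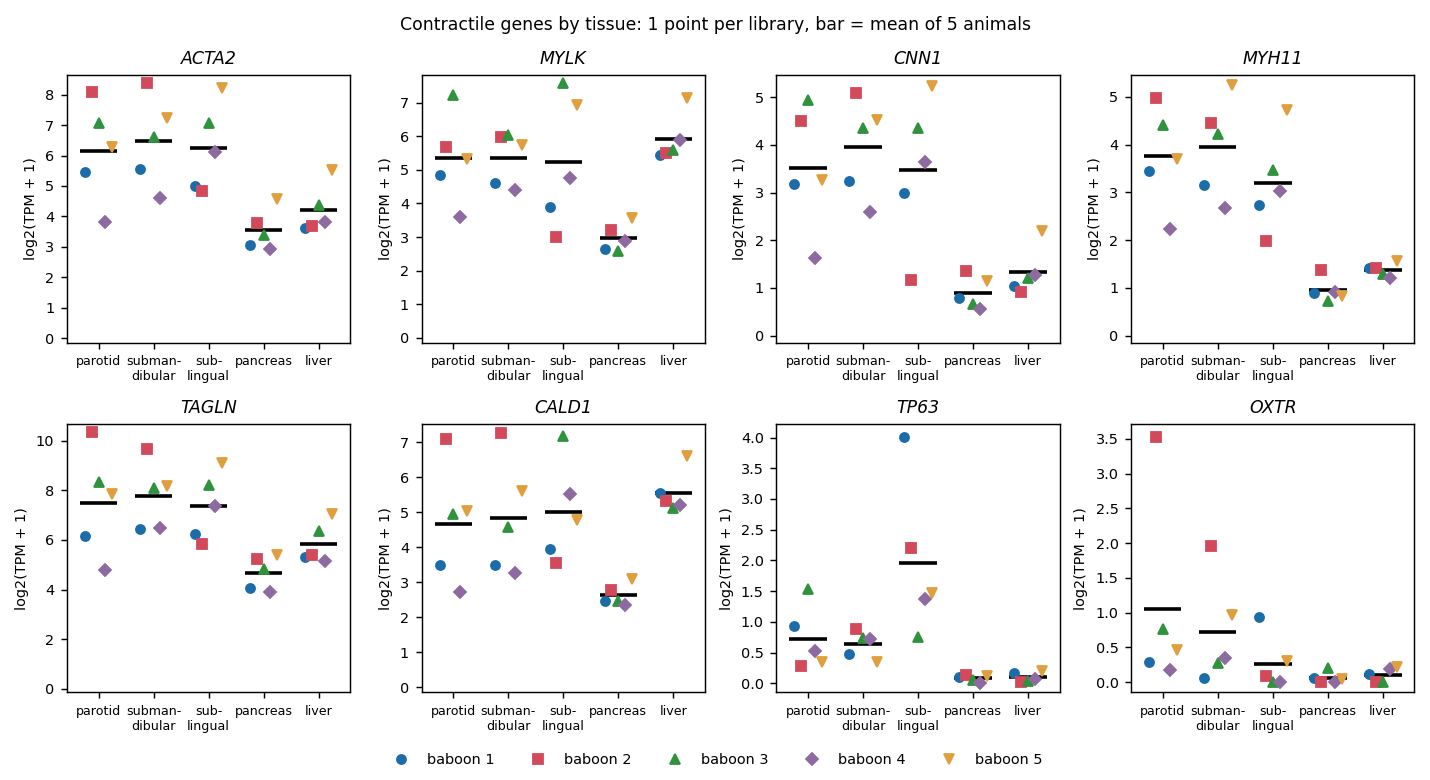
Levels of the 8 genes as log2(TPM + 1) in each of 25 libraries, by tissue, with 1 point per library, a symbol per animal and a bar at the mean of 5 animals. ACTA2, CNN1, MYH11 and TAGLN have higher means in each gland than in pancreas and liver, but of these only MYH11 lies wholly above liver in every gland. MYLK and CALD1 overlap between liver and each gland, and TP63 and OXTR are low outside a few gland libraries (the highest are 15.2 and 10.6 TPM).

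ACTA2 encodes smooth muscle alpha actin, the thin filament on which myosin pulls. Its level in baboons 1 to 5 was 42.6, 269, 134, 13.0 and 76.2 TPM in parotid gland (107 ± 101, SD, n = 5). In submandibular gland it was 45.9, 334, 96.0, 23.2 and 150 TPM (130 ± 124, SD, n = 5), and in sublingual gland 30.7, 27.7, 134, 68.4 and 300 TPM (112 ± 113, SD, n = 5). Pancreas held 7.39, 12.7, 9.60, 6.61 and 22.6 TPM (11.8 ± 6.51, SD, n = 5) and liver 11.2, 11.9, 19.7, 13.2 and 45.0 TPM (20.2 ± 14.3, SD, n = 5). Every submandibular and sublingual library lay above the highest pancreas library, and the parotid library of baboon 4 lay inside the pancreas range. The limma log2 fold change over pancreas was 2.59 (SE 0.60, adjusted p = 0.0111) in parotid, 2.93 (SE 0.60, adjusted p = 0.00355) in submandibular and 2.70 (SE 0.60, adjusted p = 0.00637) in sublingual gland, and all 5 animals had the higher value in each gland. After trimmed-mean scaling parotid was higher in 4 of 5 animals, and sublingual gland (16.3 to 195 TPM) overlapped pancreas (8.61 to 37.0 TPM), while submandibular gland did not. The parotid call was lost in 4 of 16 alternative settings and the sublingual call in 2. The order of tissue means was submandibular, sublingual, parotid, liver, pancreas, and each neighbouring pair overlapped in range.

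MYH11 encodes the heavy chain of smooth muscle myosin, the motor itself. It measured 9.97, 30.5, 20.1, 3.67 and 12.0 TPM in parotid, 7.93, 21.0, 17.6, 5.41 and 36.8 TPM in submandibular and 5.63, 2.96, 10.04, 7.19 and 25.4 TPM in sublingual gland. Pancreas held 0.86, 1.60, 0.65, 0.88 and 0.78 TPM and liver 1.67, 1.67, 1.44, 1.29 and 1.97 TPM. All 15 gland libraries therefore exceeded all 10 libraries of pancreas and liver. MYH11 rose over pancreas by 2.80 (SE 0.47), 3.00 (SE 0.47) and 2.24 (SE 0.47) on the log2 scale in parotid, submandibular and sublingual gland, with limma adjusted p of 0.000341, 0.000137 and 0.00372. After trimmed-mean scaling, the ranges of each gland still lay above those of pancreas and of liver. Among the members, MYH11 was the only one called in parotid gland under all 16 alternative settings tried, and in submandibular gland MYH11, ACTA2 and CNN1 were. The sublingual call of MYH11 was lost in 1 of the 16, without baboon 3.

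CNN1 encodes calponin, an actin-binding protein typical of differentiated smooth muscle and myoepithelium. It measured 8.03, 21.8, 30.0, 2.10 and 8.64 TPM in parotid gland and 8.47, 32.9, 19.6, 5.00 and 21.9 TPM in submandibular gland. In sublingual gland the values were 6.92, 1.24, 19.6, 11.4 and 36.9 TPM, whereas pancreas lay between 0.473 and 1.58 TPM and liver between 0.896 and 3.61 TPM. Only the sublingual library of baboon 2, the one rich in skeletal muscle RNA, fell inside the pancreas range. The limma log2 fold change over pancreas was 2.60 (SE 0.59, adjusted p = 0.0082), 3.06 (SE 0.59, adjusted p = 0.00169) and 2.58 (SE 0.59, adjusted p = 0.00757) in the order parotid, submandibular, sublingual. The parotid call was lost in 3 of 16 alternatives and the sublingual call in 5. Among the latter was the fit without the sublingual libraries of baboons 1 and 4 (2.26, limma adjusted p = 0.0756). After trimmed-mean scaling sublingual CNN1 overlapped pancreas and was higher in 4 of 5 animals. 

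TAGLN encodes transgelin, another actin-binding protein, and had the highest mean of the members in every gland on the length-corrected TPM scale. Parotid libraries held 71.4, 1298, 326, 27.0 and 233 TPM (391 ± 521, SD, n = 5), and submandibular libraries 85.4, 802, 270, 87.6 and 289 TPM (307 ± 293, SD, n = 5). Sublingual libraries held 74.2, 56.2, 299, 164 and 544 TPM, pancreas 13.8 to 40.7 TPM and liver 34.9 to 132 TPM. The 2 highest values, in parotid and submandibular gland of baboon 2, came from the libraries with the highest fibroblast marker sums, and the part of those cells in them was not tested. TAGLN rose over pancreas by 2.83 (SE 0.65, adjusted p = 0.00946), 3.08 (SE 0.65, adjusted p = 0.0043) and 2.67 (SE 0.65, adjusted p = 0.0121) in limma. Without the parotid and submandibular libraries of baboons 2 and 5 the changes were 2.01 (adjusted p = 0.0209) and 2.56 (adjusted p = 0.00356) in parotid and submandibular gland. Of 16 alternatives, 2 lost the parotid call, 1 the submandibular call and 5 the sublingual call.

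CALD1 encodes caldesmon, which inhibits actomyosin and is also made, in a shorter form, by many cells that are not muscle. The table has 1 value per gene, so the forms were not separated. Its levels were 10.2, 135, 30.0, 5.64 and 32.0 TPM in parotid, 10.2, 154, 22.8, 8.56 and 47.7 TPM in submandibular and 14.6, 10.8, 145, 44.7 and 26.2 TPM in sublingual gland. Pancreas held 4.15 to 7.60 TPM, below every submandibular and sublingual library but not below the parotid library of baboon 4. The log2 fold change over pancreas was 2.36 (SE 0.70, limma adjusted p = 0.0372) in sublingual gland, which passed, and 2.02 (SE 0.70, adjusted p = 0.122) and 2.20 (SE 0.70, adjusted p = 0.088) in parotid and submandibular gland, which did not. Without the parotid and submandibular libraries of baboons 2 and 5 the latter values were 1.06 (adjusted p = 0.39) and 1.11 (adjusted p = 0.273), while trimmed-mean scaling gave 6 called members in submandibular gland, CALD1 among them. The sublingual call was lost in 8 of 16 alternatives, among them leaving out baboons 1, 3, 4 or 5 in turn and the fit without the animal term, with an adjusted p of up to 0.221 without the sublingual libraries of baboons 1 and 4. After scaling both parotid (higher in 4 of 5 animals) and sublingual CALD1 overlapped pancreas.

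MYLK encodes the kinase that switches the motor on. It measured 27.9, 50.9, 149, 11.2 and 39.4 TPM in parotid (55.7 ± 54.2, SD, n = 5), 23.4, 62.4, 65.4, 20.1 and 52.4 TPM in submandibular (44.7 ± 21.5, SD, n = 5) and 13.9, 7.06, 192, 26.1 and 121 TPM in sublingual gland (72.0 ± 81.4, SD, n = 5). Pancreas held 5.20, 8.33, 5.04, 6.38 and 10.9 TPM and liver 42.9, 44.1, 47.2, 58.4 and 140 TPM. All parotid and submandibular libraries lay above pancreas, and 4 of 5 sublingual libraries did. The log2 fold changes over pancreas were 2.36, 2.37 and 2.26 (SE 0.61 each), with limma adjusted p of 0.0239, 0.0222 and 0.0233. These were the least firm of the calls in parotid and submandibular gland, lost in 6 of 16 alternatives in each, and the sublingual call was lost in 8 of 16, with both scalings (1.51, adjusted p = 0.0779 with the trimmed mean) and without baboons 1, 3, 4 or 5 among them. After scaling, parotid MYLK (14.998 to 136 TPM) overlapped pancreas (6.16 to 17.9 TPM) and was higher in 4 of 5 animals. Without the parotid and submandibular libraries of baboons 2 and 5, MYLK was at 2.37 (adjusted p = 0.0516) in parotid and 2.16 (adjusted p = 0.0658) in submandibular gland.

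**Figure D2:**
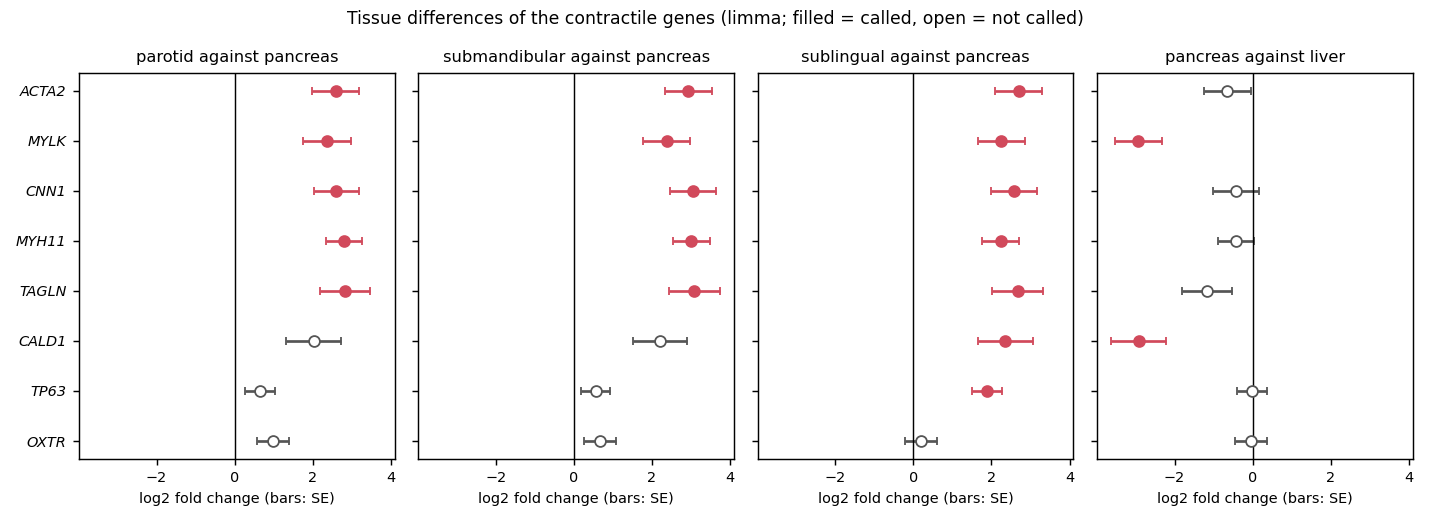
Log2 fold change of each member with its standard error, from the limma model over 25 libraries, in 4 comparisons; filled points were called and open points were not. The first 5 genes lie between 2.24 and 3.08 in the glands against pancreas, and only MYLK and CALD1, at -2.93 and -2.92, were called between pancreas and liver.

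The ranges of the 2 tissues did not overlap for MYLK, CNN1, MYH11 and TP63 in parotid against pancreas, 4 of 8 members, where 2.92% of tested genes were wholly higher. In submandibular gland 7 of 8 members were wholly above pancreas, all but OXTR, against 4.3% of tested genes. In sublingual gland ACTA2, MYH11, TAGLN, CALD1 and TP63 were, 5 of 8, against 15.6%. TP63 passed the filter on low values only through sublingual gland. Each count of it there, also after scaling or without some libraries, was thus in part built in. After trimmed-mean scaling the members wholly above pancreas were CNN1, MYH11 and TAGLN in parotid (3 of 8, against 4.44% of tested genes), the same 7 in submandibular (against 5.58%) and MYH11 and TP63 in sublingual gland (2 of 8, against 3.56%). In deposited TPM all 8 members were higher than pancreas in all 5 animals in both parotid and submandibular gland. After scaling this held for all 8 in submandibular gland and 4 in parotid gland, where ACTA2, MYLK and CALD1 were higher in 4 of 5 animals and TP63 in 3 of 5. For OXTR these counts rest on values near 0. In baboon 1 it was 0.0433 TPM in submandibular gland against 0.0400 TPM in pancreas, and in baboon 4 parotid 0.125 TPM against 0. The share of all tested genes higher in all 5 animals was not counted. In sublingual gland MYLK and CNN1 were higher in 4 of 5 animals and OXTR in 3 of 5, and the exception for MYLK and CNN1 was baboon 2. Leaving out the sublingual libraries of baboons 1 and 4, which were rich in squamous mucosa RNA, left 2 members called in sublingual gland, where 1.82% of tested genes were called higher, MYH11 at 2.10 (limma adjusted p = 0.0388) and TP63 at 1.38 (adjusted p = 0.0156). ACTA2 then stood at 2.51 (adjusted p = 0.0507) and TAGLN at 2.26 (adjusted p = 0.114), on 3 sublingual libraries. Without the sublingual library of baboon 2, 7 members were called there, but so were 24.1% of tested genes.

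TP63 encodes p63, a transcription factor of basal and myoepithelial cells that is not part of the contractile apparatus and is not made by smooth muscle. It passed the filter on low values only through sublingual gland. Its levels were 15.2, 3.58, 0.69, 1.59 and 1.75 TPM in sublingual, 0.91, 0.21, 1.89, 0.44 and 0.28 TPM in parotid and 0.39, 0.85, 0.67, 0.64 and 0.27 TPM in submandibular gland. Pancreas and liver held at most 0.1001 and 0.152 TPM, and 1 pancreas library was listed at 0. All 15 gland libraries thus exceeded all 10 of pancreas and liver, at levels that were mostly under 1 TPM. After trimmed-mean scaling this held for submandibular and sublingual gland, but the parotid libraries of baboons 2 and 5 (0.0858 and 0.106 TPM) fell inside the pancreas range (up to 0.144 TPM). TP63 was called in sublingual gland (log2 fold change over pancreas 1.88, SE 0.38, limma adjusted p = 0.00285), and stood at 0.64 (adjusted p = 0.349) in parotid and 0.55 (adjusted p = 0.686) in submandibular gland. The highest library, sublingual of baboon 1, also had 50365 TPM of KRT13, a keratin of squamous mucosa, and that tissue's part in the TP63 value was not tested. The next highest, sublingual of baboon 2 (3.58 TPM), was the library with 101745 TPM of skeletal muscle markers. Its ratios of KRT14 to TP63 (2.09) and KRT5 to TP63 (2.51) were the lowest of the 15 gland libraries. The part of skeletal muscle in its TP63 value was not tested. 

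OXTR encodes the oxytocin receptor, which drives myoepithelial contraction in the mammary gland and smooth muscle contraction in the uterus. It passed the filter only through parotid gland, and there through 1 library. The parotid values were 0.22, 10.6, 0.70, 0.12 and 0.38 TPM, and the submandibular values 0.04, 2.87, 0.21, 0.27 and 0.95 TPM. In sublingual gland it measured 0.91, 0.06 and 0.23 TPM in baboons 1, 2 and 5 and was listed at 0 in baboons 3 and 4, and no pancreas or liver library exceeded 0.161 TPM. No comparison called it: the log2 fold change over pancreas was 0.98 (SE 0.41, limma adjusted p = 0.213), 0.66 (adjusted p = 0.617) and 0.20 (adjusted p = 0.737). The 2 highest libraries, parotid and submandibular of baboon 2, were also the highest in DCN, a fibroblast proteoglycan (4001 and 3658 TPM), and the highest parotid library also held 560 TPM of MCAM, a gene of vessel walls. Without the 4 libraries of baboons 2 and 5 OXTR fell below the filter and was not tested.

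Between pancreas and liver the members split. MYLK and CALD1 were lower in pancreas by limma, at -2.93 (SE 0.61, adjusted p = 0.000886) and -2.92 (SE 0.70, adjusted p = 0.00345), so 2 of 8 members were called lower where 14.6% of tested genes were. Both were also the only members whose ranges did not overlap, against 32.9% of tested genes, and both calls held in all 16 alternatives. The other 6 did not pass: TAGLN stood at -1.17 (adjusted p = 0.241), ACTA2 at -0.66 (adjusted p = 0.523), CNN1 and MYH11 at -0.43 each (adjusted p = 0.699 and 0.607) and TP63 and OXTR at -0.02 and -0.04. Since the median of all tested genes was -0.44, and -0.02 after trimmed-mean scaling, ACTA2, CNN1 and MYH11 lay close to the bulk of genes. The members' median was -0.54, and -0.07 after scaling.

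In liver, MYLK and CALD1 were high relative to ACTA2. CALD1 measured 45.5, 39.3, 33.7, 36.0 and 97.7 TPM in liver (50.4 ± 26.8, SD, n = 5), its highest tissue mean, though liver overlapped each gland. A ratio of 2 genes within a library does not depend on the library's total, and MYLK over ACTA2 was 3.84, 3.70, 2.40, 4.41 and 3.11 in liver against 0.187 to 1.43 in the 20 other libraries. CALD1 over ACTA2 was 4.08, 3.29, 1.72, 2.72 and 2.17 in liver against 0.0876 to 1.08 elsewhere. Neither liver range overlapped any other tissue, while TAGLN over ACTA2 was 2.64 to 4.10 in liver and 1.68 to 4.83 elsewhere. These ratios were chosen after the levels were seen and are given without a test. Gland against liver was not among the comparisons tested.

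**Figure D3:**
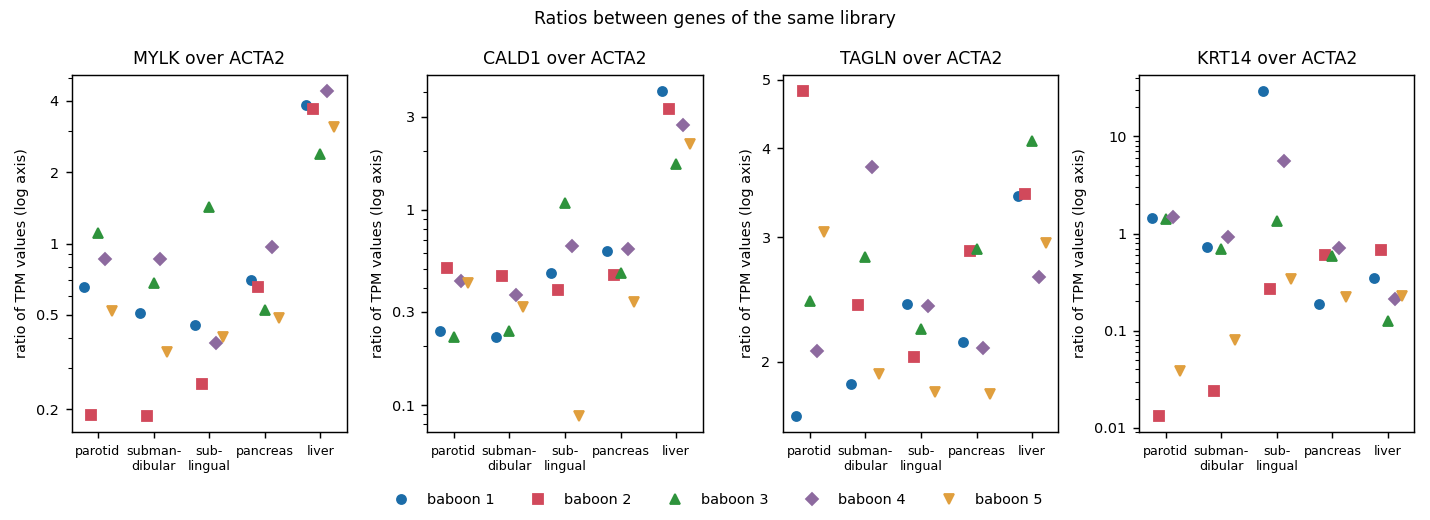
Ratios of TPM values of 2 genes of the same library (log axis), by tissue, with 1 point per library and a symbol per animal. MYLK over ACTA2 and CALD1 over ACTA2 are higher in the 5 liver libraries than in all others, and KRT14 over ACTA2 is lowest in the parotid and submandibular libraries of baboons 2 and 5 (0.0132 to 0.0807).

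Cell type markers moved with liver as follows. The hepatic stellate list (4 of 4 genes in the table) summed to 3.38 to 28.7 TPM in liver and 3.27 to 20.7 TPM in pancreas. Within it, LRAT was at most 0.186 TPM and RELN at most 0.498 TPM in liver, and HAND2 measured 1.97 to 7.62 TPM. The rest of the liver sums was DES, the desmin gene. The vascular mural list (9 of 9 genes in the table) summed to 36.1 to 70.4 TPM in liver and 34.2 to 43.7 TPM in pancreas. Its genes did not move as 1. KCNJ8, a potassium channel gene of pericytes, made up 10.7 to 37.6 TPM in liver and 0.743 to 1.38 TPM in pancreas. MCAM went the other way, at 1.37 to 4.23 TPM in liver and 4.81 to 7.98 TPM in pancreas. Endothelial markers (6 of 6) summed to 37.7 to 81.2 TPM in liver and 21.6 to 37.6 TPM in pancreas. Liver of baboon 5, the highest liver library for all 6 contractile genes, had the highest endothelial sum but the lowest mural sum. The part of these cells in the liver levels was not tested.

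No member was called between the glands. No tested gene at all (0%) was called between parotid and submandibular gland by limma, with 254 at an unadjusted p under 0.05, none of them a member. Between parotid and sublingual gland 0.113% of tested genes were called, and between submandibular and sublingual gland 0.0667%. TP63 came closest, with log2 fold changes of -1.24 (SE 0.38, adjusted p = 0.225) in parotid against sublingual and -1.33 (SE 0.38, adjusted p = 0.186) in submandibular against sublingual, and submandibular was lower in 5 of 5 animals. Without the parotid and submandibular libraries of baboons 2 and 5, TP63 was called lower in submandibular than in sublingual gland (-1.33, adjusted p = 0.0297), but 43.6% of tested genes were called lower in that fit and the median of all of them was -0.997, so TP63 lay near the bulk. The 6 contractile genes had, between glands, standard errors of 0.47 to 0.70 on the log2 scale, and missing the threshold does not show that the glands are alike.

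The spread between animals within a gland was wide in TPM. After trimmed-mean scaling it was narrower for 6 of the 6 contractile genes in parotid, 5 in submandibular and 4 in sublingual gland. In deposited TPM the highest parotid library exceeded the lowest by 20.7-fold for ACTA2, 48.1-fold for TAGLN and 24.0-fold for CALD1. After scaling the same ratios were 4.21, 6.61 and 4.50. In submandibular gland the ACTA2 ratio went from 14.4 to 3.09 and the TAGLN ratio from 9.39 to 2.74, and scaled ACTA2 was 89.6, 127, 162, 52.4 and 132 TPM in baboons 1 to 5. The exceptions that widened were submandibular MYLK (3.25 to 4.66) and sublingual ACTA2 (10.8 to 12.0) and CALD1 (13.4 to 13.9), whereas sublingual MYLK narrowed from 27.2 to 19.3 and CNN1 from 29.7 to 16.1. TP63 widened in parotid (8.92 to 20.9) and submandibular gland (3.17 to 6.15) and narrowed in sublingual gland (22.0 to 15.6).

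The contractile genes varied together across libraries. Over the 15 gland libraries, as deviations from each gland's mean of log2(TPM + 1), the 15 pairs among the 6 contractile genes had Pearson r from 0.68 to 0.97 with a median of 0.88. The points share animals and library composition, and after trimmed-mean scaling r ran from 0.31 to 0.92 with a median of 0.73. TP63 had negative r with all 6 (r from -0.37 to -0.19, and from -0.68 to -0.17 after scaling), and its r with KRT5, a basal keratin, was 0.58 (0.61 after scaling). OXTR had r of 0.89 with DCN and 0.89 with MCAM, and 0.83 with each after scaling. After scaling MYLK, CNN1 and MYH11 had r of 0.62, 0.52 and 0.61 with AQP5, the salivary water channel, and ACTA2, TAGLN and CALD1 had 0.20, -0.02 and -0.20. With MCAM r was 0.38, 0.50 and 0.49 for ACTA2, TAGLN and CALD1 and -0.18, -0.00466 and 0.16 for MYLK, CNN1 and MYH11. With DCN r was 0.14, 0.25 and 0.21 for ACTA2, TAGLN and CALD1 and -0.44, -0.21 and -0.19 for MYLK, CNN1 and MYH11. This grouping of the genes follows their r values and was not tested.

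**Figure D4:**
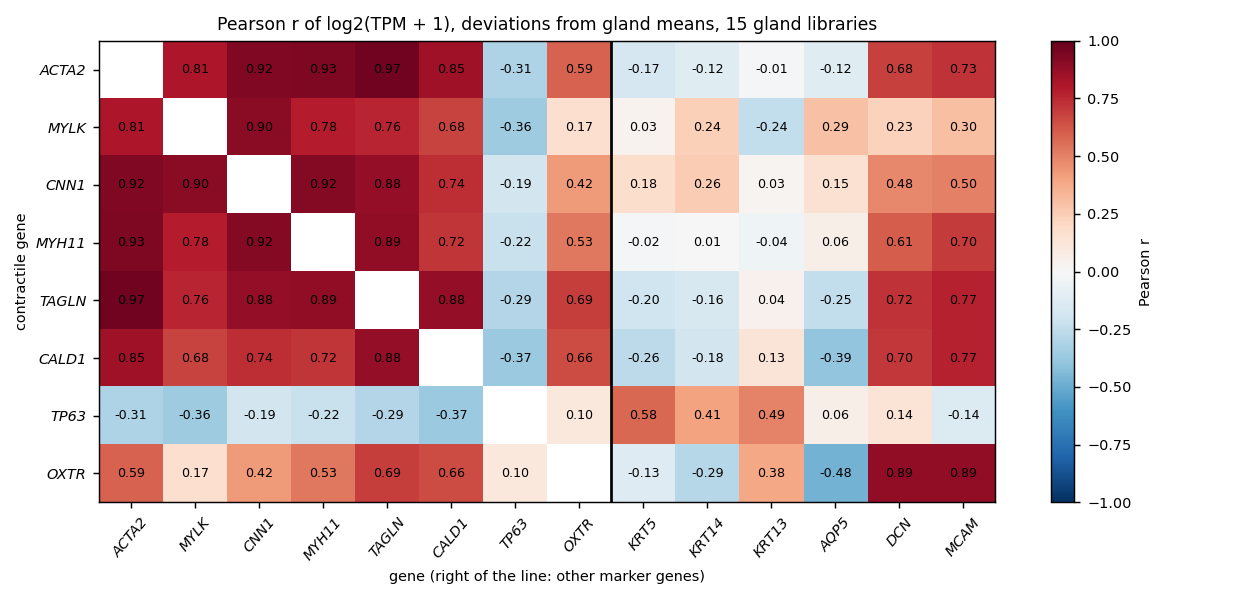
Pearson r of log2(TPM + 1) between each member and other genes over 15 gland libraries, taken as deviations from each gland's mean; the vertical line separates the members from other marker genes. The 6 contractile genes form a block of r from 0.68 to 0.97, TP63 has negative r with all 6, and OXTR has its highest r with DCN and MCAM.

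Myoepithelial cells carry both contractile proteins and basal keratins, whereas smooth muscle lacks the latter, so the ratio of KRT14 to ACTA2 was followed in each library. It was 1.40 to 1.46 in the parotid libraries of baboons 1, 3 and 4 and 0.701 to 0.933 in their submandibular libraries. In the parotid and submandibular libraries of baboons 2 and 5 it was 0.0132 to 0.0807, where ACTA2 measured 76.2 to 334 TPM against 13.0 to 134 TPM in the other 6. After trimmed-mean scaling ACTA2 was 29.0 to 132 TPM against 38.4 to 162 TPM in these sets, so it no longer stood higher. KRT5 over ACTA2 split the same libraries, at 0.449 to 1.45 against 0.0217 to 0.111. The 4 libraries of baboons 2 and 5 were not all poor in salivary marker RNA. AQP5 was 61.8 TPM in the submandibular library of baboon 5, inside the 54.7 to 88.3 TPM of that gland in baboons 1, 3 and 4. The ratio of CNN1 to ACTA2 also differed, at 0.161 to 0.224 in the 6 libraries of baboons 1, 3 and 4 and 0.0811 to 0.146 in the 4 of baboons 2 and 5. MYLK over ACTA2 was 0.189 and 0.187 in the parotid and submandibular libraries of baboon 2, lowest among all 25 libraries. In sublingual gland KRT14 over ACTA2 was 29.5, 0.270, 1.35, 5.56 and 0.338 for baboons 1 to 5, with the 2 highest in the libraries rich in squamous mucosa RNA. Vascular mural markers summed to 878 and 366 TPM in the parotid and submandibular libraries of baboon 2 and to 77.1 and 202 TPM in those of baboon 5, against 10.3 to 52.6 TPM in the same glands of baboons 1, 3 and 4. These sums were not scaled. The trimmed-mean factors were 2.47 and 2.63 in those libraries of baboon 2 and 2.63 and 1.14 in those of baboon 5. In the same glands of baboons 1, 3 and 4 they were 0.34 to 1.10, so the sums are not on 1 scale. These sets of libraries were picked after the values were seen, so the ratios are a description.

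Other genes of the contractile apparatus, 23 in all (myosin light chains, tropomyosins, desmin, filamin and the like), were called as follows. In parotid gland 4 of 23 were called higher than in pancreas by limma, namely KCNMB1 (2.54), PGM5 (2.24), MYL9 (2.14) and LMOD1 (1.78), and in submandibular gland ACTG2 (2.57), MYL9 (2.47), PGM5 (2.13) and KCNMB1 (1.86). MYL9 encodes the regulatory light chain that MYLK phosphorylates, ACTG2 the gamma actin of smooth muscle, and KCNMB1 a subunit of the large calcium-activated potassium channel. In sublingual gland 7 of 23 were called, led by TPM2 (2.71), ACTG2 (2.58), LMOD1 (2.27) and MYL9 (2.08). Over all tested genes 1.41%, 1.27% and 6.97% were called higher in parotid, submandibular and sublingual gland. TPM2 is also a skeletal muscle gene, and without the sublingual library of baboon 2 it stood at 1.71 (adjusted p = 0.0256). No gene of the list was called lower, and none was called between pancreas and liver. The list's median log2 fold change was 1.11, 0.98 and 1.68 in the 3 glands, below the members' medians. Without the parotid and submandibular libraries of baboons 2 and 5, 1 and 2 of 23 were called in parotid and submandibular gland and 16 in sublingual gland. Without the sublingual library of baboon 2 it was 15 of 23 in sublingual and 7 in parotid gland. These fits also called more of all genes. In sublingual gland 3595 genes (from 1045) were called higher without the 4 libraries, and 24.1% of tested genes without that of baboon 2. Without the 4 libraries, genes called higher were 214 (from 212) in parotid and 273 (from 190) in submandibular gland. Without the sublingual library of baboon 2 they were 336 in parotid gland.

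Of 12 genes that control the programme, from the coactivator MYOCD through RhoA kinase to calmodulin, 10 passed the filter. ITPR1, the calcium release channel of the endoplasmic reticulum, was called higher in parotid gland (1.41, limma adjusted p = 0.00823), and CALM2, a calmodulin gene, in sublingual gland (1.93, adjusted p = 0.032). None was called in submandibular gland or between pancreas and liver. Without the sublingual library of baboon 2 the counts were 2, 1 and 5 of 10 in parotid, submandibular and sublingual gland, without the 4 parotid and submandibular libraries 1, 1 and 4, and without the sublingual libraries of baboons 1 and 4 none in sublingual gland. Of all tested genes 6.97% were called higher in sublingual gland, 24.1% without the library of baboon 2 and 1.82% without those of baboons 1 and 4. Without the 4 libraries 3595 genes were, from 1045. In that fit 214 genes (from 212) were called higher in parotid and 273 (from 190) in submandibular gland. Without the sublingual library of baboon 2 the counts in these 2 glands were 336 and 259. MYOCD, the coactivator that switches on the smooth muscle programme, was at most 0.217 TPM in any library. Among 10 other receptors that drive contraction 7 passed the filter, and none was called in a gland. AGTR1 (-2.78), ADRA1B (-2.65) and ADRA1A (-2.63), the angiotensin receptor and a pair of alpha-1 adrenergic receptors, were called lower in pancreas than in liver, where these receptors are also made by hepatocytes. That was 3 of 7, against 14.6% of tested genes. 

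Basal and myoepithelial genes outside the contractile apparatus (15, all tested) followed another pattern. In parotid and submandibular gland only DST, the hemidesmosome linker dystonin, was called, at 1.40 and 1.27 over pancreas. In sublingual gland 10 of 15 were called higher, led by KRT14 (4.69), KRT5 (4.54), TRIM29 (3.21) and KRT17 (3.20). Of all tested genes 1.41%, 1.27% and 6.97% were called higher in parotid, submandibular and sublingual gland. Without the sublingual libraries of baboons 1 and 4 it was 2 of the 14 that passed the filter, against 1.82% of tested genes in sublingual gland. KRT14 then stood at 3.32 (limma adjusted p = 0.0568) and KRT5 at 2.64 (adjusted p = 0.13). The squamous mucosa sums of those libraries moved with this list, and their part was not tested. ITGB4, an integrin of hemidesmosomes, was the only one called between pancreas and liver, higher in pancreas by 2.21 (adjusted p = 0.0115).

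The genes most like each member were taken as the 3 with the highest Pearson r of log2(TPM + 1) over the 25 libraries, among 12884 tested genes with a name. MYL9 was nearest to ACTA2 (r = 0.96) and to TAGLN (r = 0.98) and among the 3 nearest to CNN1 (r = 0.92) and MYH11 (r = 0.91). It measured 20.6 to 589 TPM in parotid, 43.4 to 374 TPM in submandibular and 49.4 to 218 TPM in sublingual gland, 17.8 to 30.3 TPM in pancreas and 27.6 to 66.2 TPM in liver. ACTG2 was nearest to CNN1 (r = 0.95) and RASL12 to MYH11 (r = 0.93). OSR1 was among the 3 for ACTA2 and MYH11, TMEM8B for ACTA2 and TAGLN, TGFB1I1 for TAGLN and REPS1 for CNN1. MYLK had no neighbour as close, with CABP4 (r = 0.85), TENT5A (r = 0.84) and FBXO24 (r = 0.82), and CALD1 had TEX30 (r = 0.93), CCDC88A (r = 0.93) and MAP7D3 (r = 0.92). TP63 was nearest to SERPINB5 (r = 0.88), TRIM29 (r = 0.88) and CASP14 (r = 0.86), genes of stratified epithelium. OXTR was nearest to ADAMTS5 (r = 0.97), LOX (r = 0.96) and WNT2B (r = 0.96), and its r rests on a few libraries since it was near 0 in most.

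Among close relatives of the members, MYLK2, MYLK3 and ACTA1, the skeletal and cardiac counterparts, were highest in the sublingual library of baboon 2 (116, 29.4 and 33485 TPM), in which MYLK and ACTA2 were 7.06 and 27.7 TPM. The nonmuscle myosin MYH9 was 7.29 to 18.5 TPM in pancreas and 6.10 to 102 TPM in submandibular gland, so its ranges overlapped where those of MYH11 did not. Actin genes are near-identical in sequence, and reads shared between them are divided by the quantification, which makes single actin values uncertain. By the RefSeq gene table of Panubis1.0, ACTA2 overlaps STAMBPL1, MYH11 overlaps NDE1 and TAGLN overlaps PCSK7. Whether the quantification used strand is not given in the sources used here.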

How the data were processed

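The authors deposited 1 table of TPM values per gene for 25 libraries, named as kallisto abundances per the file's name. Per the submitters' processing notes, FastQC, MultiQC, cutadapt, HISAT2, kallisto, SAMtools, featureCounts and DESeq2 were used, with no versions. The genome build, annotation and index are not given in the sources used here, so no coordinates are printed. TPM keeps no depth, so the read number per library is unknown, no counting interval is given and precision rests on the spread over 5 animals.

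Libraries were grouped by the tissue and animal of their titles. Genes averaging 1 TPM or more in any tissue (14991) were kept, and limma 3.58.1 (trend) in R 4.3.3 was fitted to their log2(TPM + 1) over all 25 libraries, with terms for tissue and animal, for 7 comparisons. P-values were adjusted by Benjamini-Hochberg within each. Animal numbers pair the tissues because the libraries come from the same animal: after removing tissue means, libraries of the same animal correlated at 0.161 on average (50 pairs) and of different animals at -0.0354 (200 pairs). The script was tested on simulated data. Levels were computed in pandas 2.3.3 and numpy 2.4.6 (Python 3.11.15), and figures drawn with matplotlib 3.10.9.

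All 8 genes and 4 gene lists are named, with up to 4 called list genes per comparison, those with the largest absolute log2 fold change, and the 3 genes most alike to each member. The members, lists and markers were chosen with earlier results of these data known. Genes of the marker lists and paralogs named singly, and the ratios, were chosen after their values were seen. Alternatives were no animal term, only the compared tissues, 2 scalings computed on the deposited TPM, other filters and pseudocount, no fold minimum and each animal left out. Fits without the 4 parotid and submandibular libraries of baboons 2 and 5, without the sublingual library of baboon 2 or without those of baboons 1 and 4 were added after seeing the data, as was scaling before correlations and ranges, for which a library's TPM was divided by its trimmed-mean factor. Macaque samples named in the series' design text were not analysed here.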

Additional observations from a re-analysis of the deposited data

Results flagged for a closer look

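A library stood apart from the other 4 of its tissue, by Dixon's gap over range at a critical value of 0.71, in 15 of the 40 gene and tissue groups examined, always as the highest value. The chance rate of this rule, about 5% of groups, holds for normally distributed values. Here it was applied to TPM without a log, so the share expected by chance is not known. The genes are also not independent of each other. Baboon 2 was the library apart in 6 of the 15 groups. TAGLN stood at 1298 TPM in its parotid and 802 TPM in its submandibular gland (next highest 326 and 289 TPM), CALD1 at 135 and 154 TPM (next 32.0 and 47.7 TPM), OXTR at 10.6 TPM in its parotid gland (next 0.702 TPM) and MYH11 at 1.60 TPM in its pancreas (next 0.879 TPM). Liver of baboon 5, the male animal, stood apart for ACTA2 (45.0 TPM, next 19.7), MYLK (140 TPM, next 58.4), CNN1 (3.61 TPM, next 1.41) and CALD1 (97.7 TPM, next 45.5). Baboon 3 stood apart for MYLK in parotid gland (149 TPM, next 50.9), CALD1 in sublingual gland (145 TPM, next 44.7) and OXTR in pancreas (0.153 TPM, next 0.0400). In sublingual gland baboon 1 stood apart for TP63 (15.2 TPM, next 3.58) and OXTR (0.910 TPM, next 0.231).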

How the results depend on the processing

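Called members changed by more than 1.5 times under these settings, in limma throughout. In parotid against pancreas (5 called), leaving out the animal as replicate block gave 3, fitting only the compared tissues gave 1, and leaving out 1 animal gave 1 (without baboon 3) to 5. In sublingual against pancreas (7), fitting only the compared tissues gave 3 and leaving out the 2 squamous libraries gave 2. Leaving out 1 animal gave 1 (TP63, without baboon 3) to 7 there. In submandibular against pancreas (5), leaving out 1 animal gave 3 (without baboon 3) to 5. In submandibular against sublingual (0), leaving out the 4 parotid and submandibular libraries gave 1, and 1 animal 0 to 1 (TP63, without baboon 2). The block ended no other count by that much: without it 4, 6 and 2 members were called in submandibular, sublingual and pancreas against liver. Pancreas against liver (2) stayed at 2 or 3, and the other pairs of glands at 0. Reversed signs, all uncalled, were ACTA2 in pancreas against liver with median-of-ratios scaling (0.0100), TP63 there with trimmed-mean and median-of-ratios scaling (0.0201 and 0.0234), OXTR in sublingual against pancreas without the 2 squamous libraries (-0.15), and TP63 in parotid against submandibular, which ran from -0.0832 (without baboon 3) to 0.266 on leaving out 1 animal. The causes were not tested.

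Counts over all genes moved more. Scaling gave 1246 and 1255 (from 572) in parotid and 1320 and 1314 (from 611) in submandibular against pancreas. It changed the split of higher and lower calls in sublingual against pancreas from 1045 of 1419 higher to 641 of 1651 (trimmed mean) and 671 of 1677, and in pancreas against liver from 428 of 2623 to 1075 of 2758 and 1130 of 2766. Fitting only the compared tissues gave 208, 888 and 4308 in parotid, sublingual and pancreas against liver. Without the 4 parotid and submandibular libraries the counts were 965, 1263 and 4092 in the 3 glands against pancreas, and 4780 and 6327 (from 17 and 10) in parotid and submandibular against sublingual. Without the sublingual library of baboon 2, sublingual against pancreas had 3987, and without the squamous pair 579. Leaving out 1 animal gave 315 at the lowest in parotid, 326 in submandibular, 393 to 3011 in sublingual against pancreas and 1722 at the lowest in pancreas against liver.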
